A study of Homo sapiens with 6 samples.

Results

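E2F transcription factors and RB pocket proteins were followed in MM1S, a long-established human myeloma line; myeloma is a tumour of antibody-secreting plasma cells. The members were E2F1 to E2F8 and the pocket protein genes RBL1 and RBL2, 10 genes of the 19775 read, and every probe set whose annotation names one of these symbols alone was taken, 21 of 54613. None of the 21 probe sets shares its annotation with another symbol, and no filter on low values was applied. Single-colour oligonucleotide arrays were run on 3 samples labelled normoxia and 3 labelled hypoxia. The treatment text, 24 h of hypoxia, is the same on all 6 samples, normoxia included. The groups therefore rest on the condition label alone, and the 24 h is read here as the time in hypoxia of the hypoxia group. No genetic change or other agent is named for either group, and neither the oxygen level nor the handling of the normoxia cells is stated in the sources used here. Since no label calls the replicates separate cultures, the p-values below speak of the spread among these 6 samples, which may be technical.

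E2F proteins bind the promoters of genes needed to enter and complete S phase. E2F1, E2F2 and E2F3 are activators, which most often bind DNA as dimers with a DP protein and are held inactive by RB family pocket proteins. E2F4 and E2F5 act mainly as repressors together with RBL1 or RBL2, which join the MuvB core to form the DREAM complex of resting cells. E2F6 lacks the part that binds pocket proteins and represses genes through a Polycomb complex. E2F7 and E2F8 are atypical repressors that bind DNA without a DP partner. Several genes of the family, such as E2F1 and RBL1, are known E2F targets themselves.

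The stretches before the starts of 5 members are printed because these genes passed the test below and differ in the letters there. E2F1, E2F2 and RBL1 fell and hold E2F octamers, E2F6 fell and holds none, and RBL2 rose and holds none. Among members not printed, E2F3 holds an octamer but did not pass, and E2F4 and E2F7 hold none and did not pass. E2F8 fell, but its promoter was not searched. Whether octamers go with the falls was not tested. Each stretch is 250 bases up to the RefSeq start (GRCh38.p14), 5′ to 3′ on the strand of the gene, with E2F octamers in capitals. They lie at chr20:33686386-33686635 (minus strand) for E2F1, chr1:23531234-23531483 (minus strand) for E2F2, chr20:37095998-37096247 (minus strand) for RBL1, chr2:11466162-11466411 (minus strand) for E2F6, and chr16:53434221-53434470 (plus strand) for the first of the RBL2 starts.
E2F1: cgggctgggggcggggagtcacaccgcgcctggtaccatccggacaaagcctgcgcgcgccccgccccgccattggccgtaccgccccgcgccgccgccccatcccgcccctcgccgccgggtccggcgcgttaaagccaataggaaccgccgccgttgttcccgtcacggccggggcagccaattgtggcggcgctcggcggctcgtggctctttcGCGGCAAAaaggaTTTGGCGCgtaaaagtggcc
E2F2: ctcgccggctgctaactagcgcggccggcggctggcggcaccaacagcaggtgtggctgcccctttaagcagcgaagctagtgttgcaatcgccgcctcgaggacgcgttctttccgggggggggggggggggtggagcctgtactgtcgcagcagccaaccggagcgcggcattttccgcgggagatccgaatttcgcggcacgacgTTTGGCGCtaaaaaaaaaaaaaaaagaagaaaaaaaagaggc
RBL1: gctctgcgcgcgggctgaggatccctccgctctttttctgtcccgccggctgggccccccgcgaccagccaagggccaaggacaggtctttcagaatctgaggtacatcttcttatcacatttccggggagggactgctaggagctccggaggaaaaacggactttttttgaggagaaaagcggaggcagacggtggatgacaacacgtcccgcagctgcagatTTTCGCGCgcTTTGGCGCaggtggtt
E2F6: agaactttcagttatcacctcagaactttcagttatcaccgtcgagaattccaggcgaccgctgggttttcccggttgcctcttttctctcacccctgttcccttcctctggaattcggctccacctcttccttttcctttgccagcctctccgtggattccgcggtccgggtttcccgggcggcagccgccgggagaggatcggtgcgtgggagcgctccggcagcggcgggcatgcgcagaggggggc
RBL2: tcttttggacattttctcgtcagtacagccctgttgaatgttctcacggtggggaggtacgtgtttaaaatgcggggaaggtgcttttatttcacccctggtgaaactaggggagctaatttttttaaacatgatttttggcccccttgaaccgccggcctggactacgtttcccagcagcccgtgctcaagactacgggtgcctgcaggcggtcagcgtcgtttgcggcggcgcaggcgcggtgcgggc

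The octamers searched on both strands were TTTCCCGC, TTTCGCGC, TTTGCCGC and TTTGGCGC. In E2F1 they begin 33 and 20 bases before the start, in RBL1 26 and 16 bases and in E2F2 42 bases before it. RefSeq entries were used for 8 of the 10 members, with 10 starts in all; E2F5 and E2F8 are not included. Of the 8 genes, 4 held an octamer: E2F1, E2F2, RBL1 and E2F3, the last in the first of its starts, 53 bases before it. Among all 35116 RefSeq promoters, 2.79% held at least 1 octamer, and 0.122% held at least 2, as E2F1 and RBL1 do. The other motifs searched were the cell cycle element CHR (TTTGAA or TTCGAA; in 14.3% of all promoters), the CCAAT box (32%) and the HIF core (ACGTG or GCGTG; 43.2%), which the hypoxia-inducible factors bind. CCAAT boxes numbered 3 in E2F1, 4 in the first start of E2F3, 4 in E2F7 and 1 in the second start of RBL2. A HIF core match lay in RBL1, E2F6, E2F4, the first start of RBL2 and the second start of E2F3. An E2F octamer does not overlap a CHR, CCAAT or HIF core match in these stretches, while the HIF core matches of E2F3 on opposite strands overlap each other. A match describes letters in this window and says nothing of binding.

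**Figure D1:**
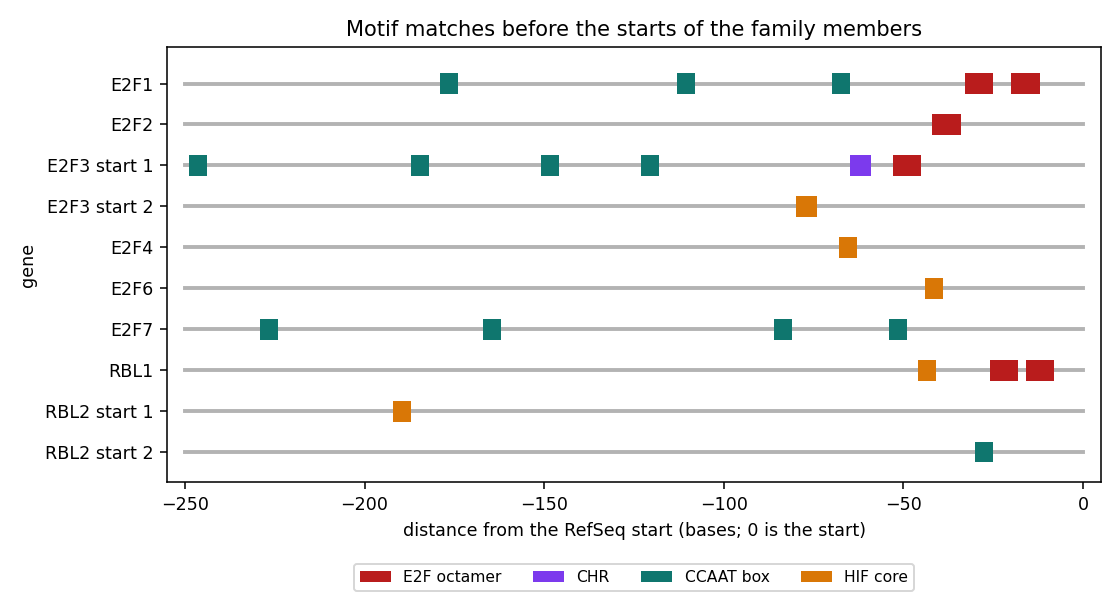
Positions of motif matches in the 250 bases before each RefSeq start (x axis, distance in bases; 0 is the start) for the members with an entry (y axis). Red bars, the E2F octamers, lie within 53 bases of the start in E2F1, E2F2, E2F3 (start 1) and RBL1.

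Array medians were 54.95 to 60.13 intensity units, and pairs of arrays correlated at 0.988 to 0.993 inside a group and 0.962 to 0.968 across groups (log2 values over probe sets, which do not count as replicates). All 8 HIF target genes set as a check of the condition rose, by 0.70 to 3.58, where 16.9% of all genes rose. Plasma cell markers were bright (7 measured; summed intensity 35900 to 37567 in normoxia and 35355 to 37438 in hypoxia), but not constant: CD38 fell from 335 ± 23.3 to 198 ± 12.4, SDC1 and SLAMF7 fell by 0.30 and 0.34, and XBP1 rose by 0.22, a call lost in 9 of its 15 alternatives, each of those that left out 1 array among them. The summed intensity was 215 to 278 and 216 to 283 for 4 T cell markers, and 150.2 to 158 and 150.4 to 187 for 4 myeloid markers, of which CD14 and LYZ lay below the median of every array. It was 283 to 320.1 and 230.2 to 368 for 4 stromal markers, 102 to 132 and 118 to 186 for 3 epithelial markers, and 1717 to 1936 and 1139 to 1190.3 for 2 erythroid markers, nearly all of it from HBB. HBB fell from 1751 ± 128 to 1125 ± 27.7, the epithelial marker EPCAM rose from 24.8 ± 4.04 to 67.3 ± 9.97, and the T cell marker CD3D rose by 0.38, a call lost in 9 of its 14 alternatives. CD3G, ALAS2 and KRT19 also lay below the median of every array. The part of such signals in the results below was not tested.

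The family lost transcripts in hypoxia on both its activator and its repressor side, and the 2 pocket protein genes followed, RBL1 and RBL2, moved in opposite directions. RB1 was not among the members. Read by the brightest probe set of each gene, E2F2, E2F6 and RBL1 fell to 34.0%, 39.7% and 28.9% of their normoxia means, and E2F1 and E2F8 to 51.2% and 57.7%. RBL2 rose to 152% of its normoxia mean, and E2F3, E2F4, E2F5 and E2F7 did not pass. In limma with Benjamini-Hochberg adjustment over all genes, 5 of the 10 members fell and 1 rose at an adjusted p of 0.05, where 20.6% of all genes fell and 16.9% rose. Among the 21 probe sets, adjusted over all probe sets, 9 fell and 1 rose, where 15.2% of all probe sets fell and 15.5% rose. The median change of the 10 genes was -0.48 on the log2(intensity + 16) scale, against -0.0002 over all genes. Changes are given on that scale as hypoxia minus normoxia, which understates the change of dim probe sets. Since the arrays read whole cultures, fewer cells in a phase of the cell cycle and less RNA per cell cannot be told apart. Values of single probe sets below carry adjusted p over all probe sets.

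**Figure D2:**
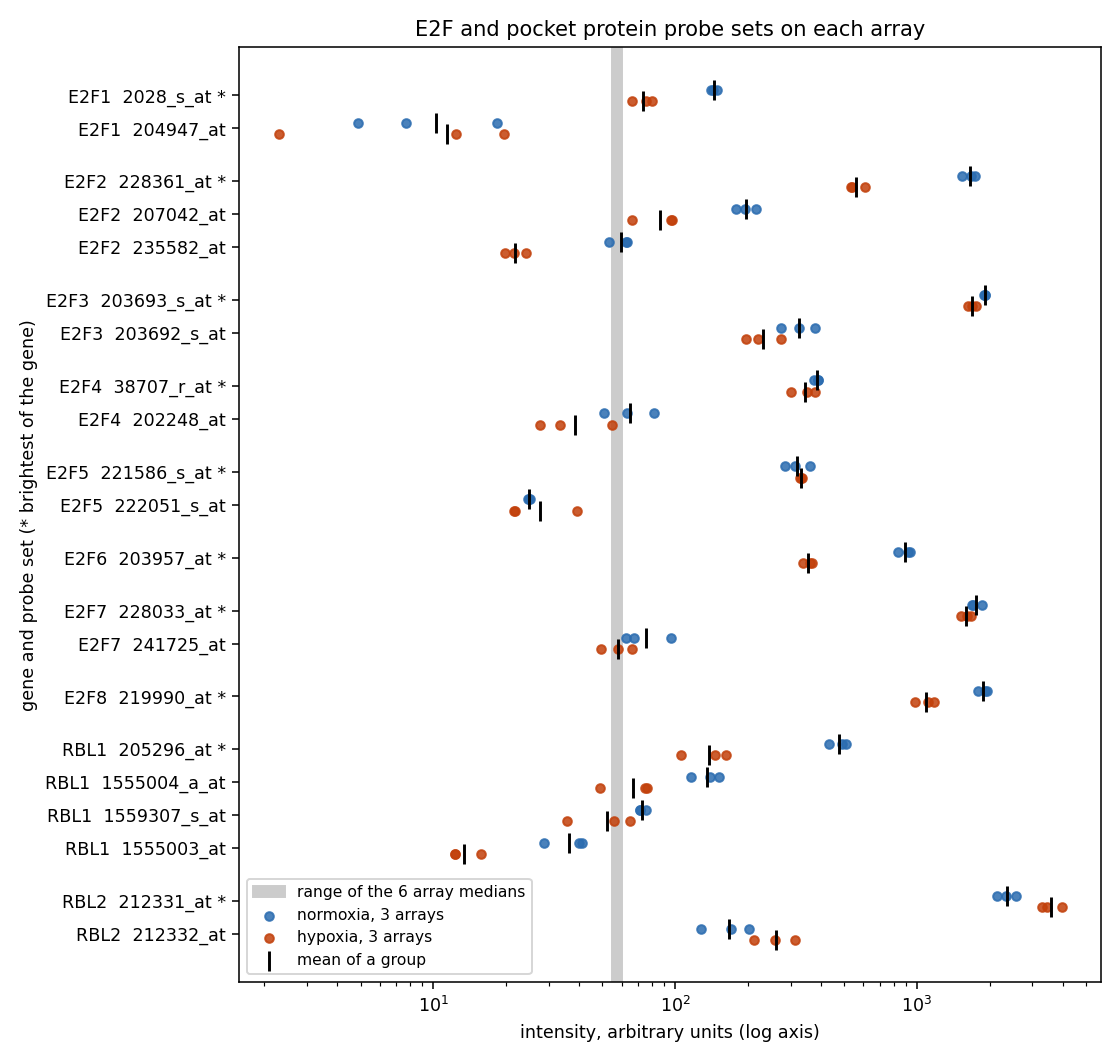
Intensity (x axis, log scale) of the 21 probe sets (y axis) on 3 normoxia arrays (blue) and 3 hypoxia arrays (orange), with the mean of each group as a black tick and the range of the array medians in grey. For the brightest probe sets of E2F2, E2F6 and RBL1 all hypoxia arrays lie far to the left of all normoxia arrays, and for RBL2 to the right.

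Among the activators, E2F2, which drives S phase entry with E2F1 and E2F3, changed the most. Its brightest probe set, 228361_at, read 1535, 1671 and 1744 in normoxia and 536, 606 and 539 in hypoxia (replicates 0, 1 and 2). The groups lay far apart, with the highest hypoxia array at 606 and the lowest normoxia array at 1535. The means were 1650.1 ± 107 and 561 ± 39.8 (SD, n = 3 each), a change of -1.53 (95% confidence interval, CI, -1.75 to -1.31, limma adjusted p = 0.000114). Ordered from the lowest change up, E2F2 ranked 282 among all genes. The other E2F2 probe sets moved the same way. Probe set 207042_at read 194, 179 and 216 in normoxia and 66.2, 96.0 and 96.7 in hypoxia (change -1.06, limma adjusted p = 0.00261). Probe set 235582_at read 63.3, 62.8 and 53.2 against 21.45, 19.8 and 24.2 (change -1.0, limma adjusted p = 0.000462). In neither did the groups overlap, so all 3 E2F2 probe sets fell, although the last lay below the array median on 4 of 6 arrays.

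E2F1, the founding activator, was read by a moderately bright and a dim probe set. The first, 2028_s_at, read 149, 143 and 140.3 in normoxia and 66.0, 80.1 and 75.6 in hypoxia. The groups did not overlap, and the means of 144 ± 4.48 and 73.9 ± 7.18 (n = 3 each) gave a change of -0.84 (95% CI -1.04 to -0.63, limma adjusted p = 0.000722). The other, 204947_at, read 18.3, 7.68 and 4.86 in normoxia and 2.29, 19.5 and 12.35 in hypoxia, below the median of every array. Its groups overlapped and spread widely (change 0.041, 95% CI -0.68 to 0.76, limma adjusted p = 0.945), so the fall of E2F1 rests on 1 of its 2 probe sets. With the mean of both probe sets E2F1 did not pass (-0.40, limma adjusted p over all genes = 0.146).

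E2F3, which also has a shorter form from a second promoter, stayed closest to its normoxia level among the activators. Its brighter probe set, 203693_s_at, read 1893, 1911 and 1906 in normoxia and 1619.5, 1681 and 1751 in hypoxia. All hypoxia arrays were lower, but only by a small step: the means were 1904 ± 9.08 and 1684 ± 65.9 (n = 3 each), a change of -0.18 (95% CI -0.34 to -0.012, limma adjusted p = 0.106). The dimmer one, 203692_s_at, read 378, 324 and 274 in normoxia and 274, 221 and 197 in hypoxia, with the lowest normoxia and the highest hypoxia array nearly equal (change -0.47, 95% CI -0.86 to -0.078, limma adjusted p = 0.0767). Neither probe set passed with the settings used throughout, and both calls depend on the setting. With all 6 arrays, 203693_s_at passed when dim features were left out, with an intensity trend, with median centring and with a pseudocount of 64 (limma adjusted p = 0.0124 to 0.0411). With all 6 arrays, 203692_s_at passed when dim features were left out, with an intensity trend, with a pseudocount of 64 and with the replicate number as a block (limma adjusted p = 0.0127 to 0.0498), and it also passed without the hypoxia array numbered 0 (-0.59, limma adjusted p = 0.0417). Over all genes E2F3 was at adjusted p = 0.0551, and over its alternatives limma adjusted p ran from 0.00855 to 0.182.

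Of the repressors, E2F6, the Polycomb-linked member, had the largest change. Its single probe set, 203957_at, read 834, 914 and 934 in normoxia and 337, 359.6 and 368 in hypoxia. No array of one group came near the other, and the means of 894 ± 52.9 and 355 ± 15.7 (n = 3 each) gave a change of -1.29 (95% CI -1.49 to -1.10, limma adjusted p = 0.000133).

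The atypical repressors E2F7 and E2F8, which restrain E2F1 and its targets late in S phase, are close relatives. E2F8, read by 219990_at, was at 1792, 1912 and 1944 in normoxia and 983, 1172 and 1106 in hypoxia. The groups were well separated, with means of 1882 ± 80.0 and 1087 ± 96.2 (n = 3 each), a change of -0.79 (95% CI -1.01 to -0.56, limma adjusted p = 0.00120). E2F7, read by 228033_at, was at 1855, 1702 and 1686 in normoxia and 1679, 1608 and 1517 in hypoxia. Its groups did not overlap but nearly touched (change -0.12, 95% CI -0.32 to 0.068, limma adjusted p = 0.316). The dimmer E2F7 probe set, 241725_at, read 96.2, 62.6 and 67.6 against 57.9, 66.3 and 49.1, with overlapping groups (change -0.30, limma adjusted p = 0.245). Within each array, the log2 level of E2F7 minus that of E2F8 was -0.11 ± 0.14 in normoxia and 0.55 ± 0.18 in hypoxia (n = 3 each). Its values of -0.20 to 0.049 and 0.45 to 0.76 did not overlap; no test of it was made.

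E2F4 and E2F5, the repressors that work with RBL1 and RBL2 in resting cells, did not pass with any probe set. For E2F4, 38707_r_at read 391, 375 and 388 in normoxia and 379.6, 302 and 349 in hypoxia, and the groups overlapped (change -0.16, 95% CI -0.40 to 0.079, limma adjusted p = 0.300). The dim E2F4 probe set 202248_at read 81.4, 50.5 and 63.2 against 55.02, 33.5 and 27.5, again with overlap (change -0.58, 95% CI -1.13 to -0.036, limma adjusted p = 0.108). It passed when the hypoxia array numbered 0 was left out (-0.79, limma adjusted p = 0.0310), and also when both arrays numbered 0 were left out. With all arrays it passed when the replicate number was a block (-0.58, limma adjusted p = 0.0359), so its call depends on the setting. For E2F5, 221586_s_at read 360.0, 313 and 285 in normoxia and 335, 327 and 330.1 in hypoxia, the hypoxia arrays lying inside the normoxia range (change 0.055, 95% CI -0.19 to 0.29, limma adjusted p = 0.749). The other E2F5 probe set, 222051_s_at, lay below the median of every array, at 24.7 to 25.2 in normoxia and 21.5 to 39.2 in hypoxia (limma adjusted p = 0.827). The sign of the E2F5 change flipped with median centring (-0.011).

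The pocket proteins gave the widest contrast in the family. RBL1, the pocket protein made mainly in cycling cells, read 507, 432 and 489 in normoxia and 105, 162 and 146 in hypoxia with its brightest probe set, 205296_at. The highest hypoxia array lay far below the lowest normoxia array, and the means of 476 ± 39.0 and 138 ± 29.0 (n = 3 each) gave a change of -1.69 (95% CI -2.08 to -1.31, limma adjusted p = 0.000527). Ordered from the lowest change up, RBL1 ranked 191 among all genes; with the mean of its 4 probe sets its change was smaller (-0.95), behind those of E2F6 (-1.29) and E2F2 (-1.20). The RBL1 probe sets 1555004_a_at and 1555003_at fell as well. The first read 152, 139 and 116 against 76.2, 75.2 and 48.7 (change -0.89, limma adjusted p = 0.00968), and the second 28.55, 41.0 and 39.9 against 12.3, 12.2 and 15.7 (change -0.83, limma adjusted p = 0.00302). The second lay below the median of every array, and whether its signal stands above background was not tested. The RBL1 probe set 1559307_s_at read 71.2, 75.65 and 71.5 against 35.5, 65.2 and 56.0; all hypoxia arrays were lower, but it did not pass (change -0.40, limma adjusted p = 0.141).

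RBL2, the pocket protein that prevails in resting cells, was the 1 member that rose. Its brighter probe set, 212331_at, read 2569, 2339 and 2149 in normoxia and 3973, 3445 and 3290.1 in hypoxia. Every hypoxia array lay above every normoxia array, and the means of 2352 ± 210.3 and 3569 ± 358 (n = 3 each) gave a change of 0.60 (95% CI 0.33 to 0.86, limma adjusted p = 0.00765). The dimmer probe set, 212332_at, read 202, 169 and 128 in normoxia and 312, 258 and 211 in hypoxia. It moved by a like amount without overlap but did not pass (change 0.60, 95% CI 0.12 to 1.09, limma adjusted p = 0.0688). In both probe sets the arrays numbered 0 were the highest of their group. Within each array, the log2 level of RBL2 minus that of RBL1 was 2.31, 2.39 and 2.10 in normoxia and 5.04, 4.28 and 4.35 in hypoxia, a shift of 2.29 between the group means. These are differences between probe sets, whose levels cannot be set against each other, so only the shift is read.

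**Figure D3:**
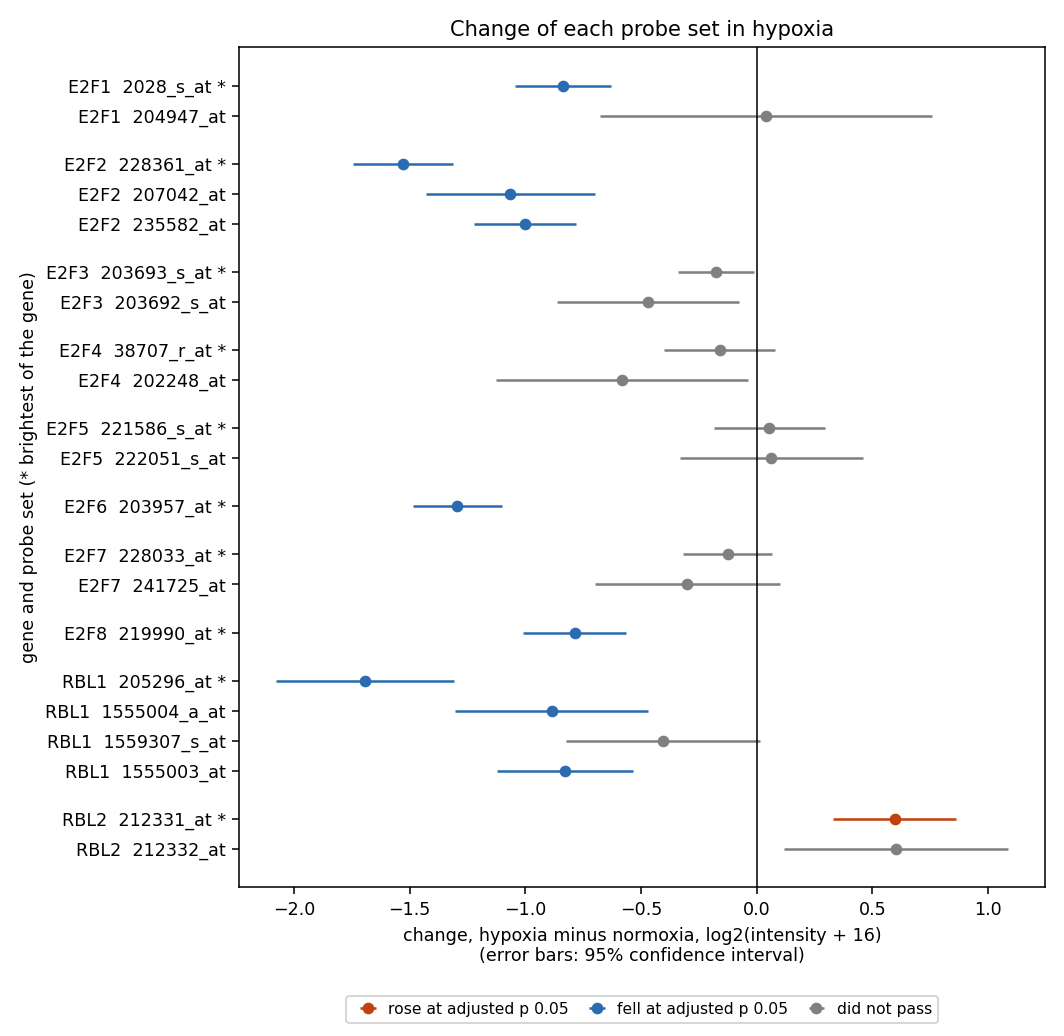
Change of each probe set (x axis, hypoxia minus normoxia, log2(intensity + 16)) with its 95% confidence interval, by gene and probe set (y axis); blue fell, orange rose and grey did not pass in limma. The intervals of the E2F6, E2F8 and all E2F2 probe sets lie left of 0, and those of both RBL2 probe sets right of it. The intervals are not adjusted for the number of probe sets. Those of both E2F3 probe sets, 202248_at of E2F4 and 212332_at of RBL2 exclude 0, yet none of these passed.

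Set side by side, the activators and repressors were not separated by direction. Of 3 activators 2 fell, of 5 repressors 2 fell, and of 2 pocket protein genes 1 fell and 1 rose. Over all genes 20.6% fell and 16.9% rose. The mean log2 level of the activators was 9.62 to 9.66 on the normoxia arrays and 8.71 to 8.87 on the hypoxia arrays, a change of -0.85. For the repressors it was 9.69 to 9.73 and 9.23 to 9.25, a change of -0.46, where the median over the 5 genes was -0.16. For the pocket proteins it was 10.005 to 10.183 and 9.443 to 9.615, a change of -0.55. That last mean joins a fall of RBL1 (-1.69) and a rise of RBL2 (0.60) and describes neither gene. No test of these means was made, since the members were chosen with results known. Over the 21 probe sets, hypoxia lay wholly below normoxia in 13 and wholly above in 2, where 20.9% and 21.6% of all probe sets did so. The 6 that overlapped were the dim E2F1 probe set, both of E2F4, both of E2F5 and the dim one of E2F7.

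The DP proteins, which pair with E2F1 to E2F6 on DNA, also fell. TFDP1 went from 5754 ± 174 to 2407 ± 212 (n = 3 each; change -1.25, limma adjusted p over all genes = 0.000121). TFDP2 went from 303 ± 3.19 to 86.2 ± 19.6 (change -1.66, limma adjusted p over all genes = 0.000385; -0.75 with the mean of its probe sets). Both thus fell, where 20.6% of all genes fell.

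Of 8 genes of the MuvB core and of the MYB and FOXM1 factors, 7 fell and 1 did not pass, where 20.6% of all genes fell, with a median change of -0.62. LIN54, the subunit that binds the CHR element, fell by 0.81, LIN9 by 0.96, RBBP4, a histone-binding subunit, by 0.57 and LIN52 by 0.48. The transcription factor genes FOXM1, MYBL2 and MYBL1 fell by 0.67, 0.70 and 0.32. With the mean of probe sets LIN9 (-0.40) and MYBL1 (-0.037) did not pass, and LIN52 was lost with quantile normalization and without the hypoxia array numbered 1 or the normoxia array numbered 1 or 2. LIN37 was at 288 ± 73.8 in normoxia and 357 ± 33.7 in hypoxia and did not pass (limma adjusted p over all genes = 0.241). It rose past the threshold without the normoxia array numbered 0.

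Partners of E2F6 in its Polycomb complex, PRC1.6, held both falls and rises. Of 8 measured, 4 fell, 2 rose and 2 did not pass, with a median change of -0.23; RNF2 was not analysed here. Over all genes 20.6% fell and 16.9% rose, so 2 rises of 8 lay near the background. L3MBTL2 and PCGF6, subunits of this form of the complex, fell by 0.91 and 0.58, MGA, its DNA-binding scaffold, by 0.53 and the heterochromatin protein gene CBX3 by 0.42. The paralogues YAF2 and RYBP rose by 0.38 and 0.31. MAX, the MGA partner, and RING1, a ubiquitin ligase, were at 0.0037 and -0.042. With the mean of probe sets YAF2 (0.20), RYBP (0.18) and CBX3 (0.0028) did not pass, and RYBP was also lost without the hypoxia array numbered 1 or 2 or the normoxia array numbered 1 or 2.

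Upstream of the pocket proteins, G1 cyclins and kinases mostly fell while inhibitors of the kinases rose or did not pass. Of 10 genes measured, 5 fell and 3 rose, where 20.6% of all genes fell and 16.9% rose, with a median change of -0.14; CDKN2C was not analysed here. CCND1, a D-type cyclin, fell by 1.78 and CCND3 by 1.27, and CDK4, the kinase they activate, by 1.55. CDKN1C, a kinase inhibitor, rose from 178 ± 13.5 to 1870 ± 12.2 (n = 3 each; change 3.28, limma adjusted p over all genes = 2.07e-05). Outside the naming rule, and picked out with their values known, CDK2 passed at -1.17, as did CCND2 at -0.20, CDKN1B, another inhibitor, at 0.50 and CDK6 at 0.39. The call of CCND2 was lost without any 1 of the 6 arrays (limma adjusted p over all genes = 0.0519 to 0.107) and with quantile normalization. With the mean of probe sets the fall of CCND2 was larger (-0.61, limma adjusted p over all genes = 0.000901), while the call of CDK6 was lost (0.17). Among 4 genes of E2F turnover, SKP2, a ubiquitin ligase subunit, and FBXO5, an inhibitor of the anaphase-promoting complex, fell by 1.13 and 0.97, where 20.6% of all genes fell. CCNF and FZR1, which direct the degradation of E2F proteins, were at -0.10 and 0.23 and did not pass.

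All 35 measured G1/S targets of the family fell, where 20.6% of all genes fell, with a median change of -1.70 and a range of -3.43 to -0.38. POLA1, the catalytic subunit of DNA polymerase alpha, fell from 1471 ± 82.2 to 338 ± 4.16 (change -2.07), and UHRF1, POLE2 and MCM10 were the other members with the smallest adjusted p. Of 30 G2/M genes bound by MuvB and FOXM1, 9 rose, 5 fell and 16 did not pass, with a median change of 0.030. These shares, 30.0% up and 16.7% down, stand beside 16.9% and 20.6% of all genes, so the falls lay near the background. BUB1 and NEK2, mitotic kinases, rose by 0.61 and 0.58 and the phosphatase gene CDC25C by 0.33. CCNB1, a mitotic cyclin, fell by 0.37. With the mean of probe sets 7 G2/M genes rose and 7 fell, and CDC25C did not pass (0.0060). Across all alternatives 5 to 11 rose and 2 to 7 fell. The G2/M counts depend on single arrays: without the hypoxia array numbered 1 or 2, or the normoxia array numbered 1, 5 rose, and the count of falls was 2 or 3 without the hypoxia array numbered 1 or 2 or the normoxia array numbered 0 or 2. No test of the difference between the lists was made. These lists overlap in content with genes already known to change in these data and are no independent evidence of direction.

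**Figure D4:**
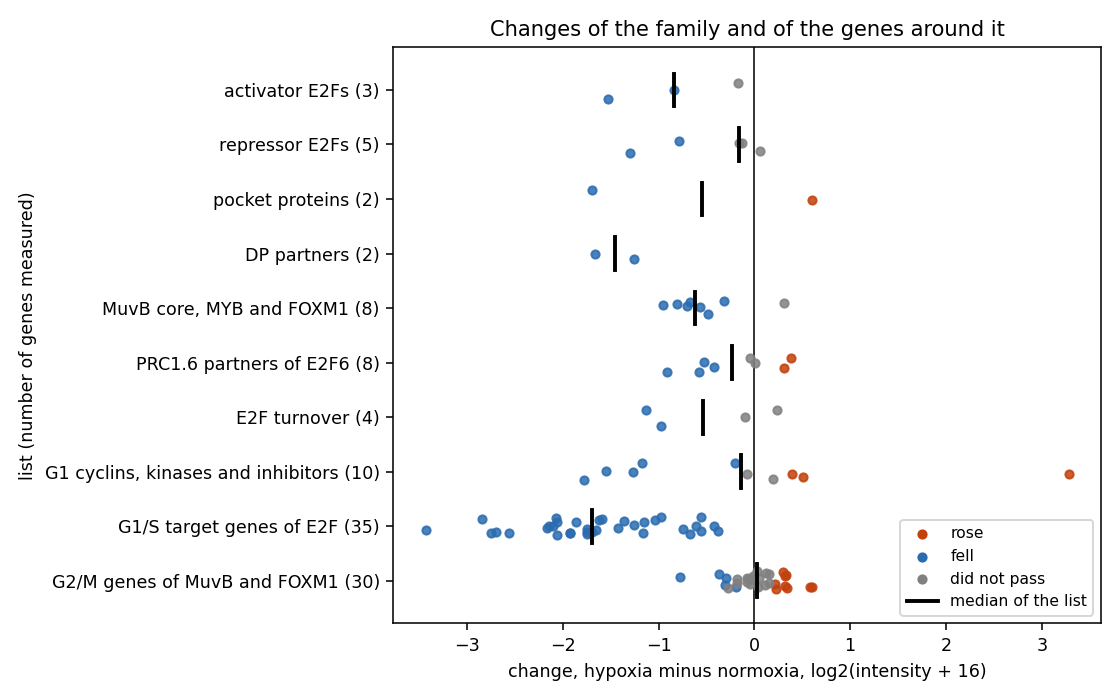
Change of each gene (x axis, hypoxia minus normoxia, log2(intensity + 16)) in the family and in the lists around it (y axis, with the number of genes measured); blue fell, orange rose, grey did not pass, black bars are medians. The 35 G1/S targets all lie left of 0 with a median of -1.70, and the 30 G2/M genes lie around 0.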

How the data were processed

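RNA of MM1S cells was read on 6 arrays; groups came from the condition label and replicate numbers (0 to 2) from the titles. The labels' protocols name RNeasy isolation and biotin-labelled cRNA made by in vitro transcription. The deposited table holds linear intensity values for 54613 probe sets, per the values themselves; background correction, summary and scaling are not given in the sources used here. No detection calls were used; the small number of arrays sets the precision.

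Probe sets were named from the supplied platform annotation (41091 with 1 symbol, 1801 with several, 11721 with none here), updated through Entrez identifiers for 41037. For each gene, the brightest of its single-symbol probe sets (by mean log2 over all arrays) was read. Moderated linear models (limma 3.58.1, run under R 4.3.3) compared hypoxia with normoxia on log2(intensity + 16), two-sided and without covariates, with Benjamini-Hochberg adjustment over all 54613 probe sets or 19775 genes, and a threshold of 0.05. The procedure was tested on simulated data. No array pair was identical (at most 1.23% of values equal). Alternatives changed the pseudocount (1, 64), dim features, centring, quantile normalization, an intensity trend, the replicate block, the probe sets per gene or rows tested, and left out arrays.

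All probe sets of the members are named. Genes of lists of up to 9 may be named, and of longer lists the 4 with the smallest adjusted p. Of the marker lists only some genes are named, and of the HIF targets none. The members and lists were chosen with earlier results of these data known. Promoters were searched by exact match.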

Additional observations from a re-analysis of the deposited data

How the results depend on the processing

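The calls of E2F2, E2F6, E2F8, RBL1 and RBL2 in limma over all genes, and their directions, held under every alternative run for them. E2F1 was lost with the mean of probe sets (-0.40, adjusted p = 0.146). E2F3 passed when dim features were left out (-0.18), with an intensity trend (-0.18), with the mean of probe sets (-0.32), with median centring (-0.24) and with a pseudocount of 64 (-0.17). The sign turned for values that never passed: the bright E2F5 probe set was at -0.011 and the dim one at -0.0014 with median centring, and the dim E2F1 probe set at -0.025 with median centring and -0.040 with a pseudocount of 1. Leaving out single arrays, these were at -0.021 to 0.14, -0.12 to 0.16 and -0.17 to 0.31.

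The number of member probe sets that rose was 2 when dim features were left out, with an intensity trend, with a pseudocount of 64 and with the replicate block, through 212332_at of RBL2. Same-numbered arrays deviated together at correlations of 0.21, 0.0082 and 0.19 for the numbers 0, 1 and 2. Those of 0 and 2 were the highest of all pairs across the groups, so pairing is not settled. The hypoxia array numbered 1 lay closer to a normoxia array of another number (0.093). The titles do not say that the numbers pair arrays, so the block was kept as an alternative. With the replicate block 11 member probe sets fell, 203692_s_at of E2F3 and 202248_at of E2F4 now among them, and 2 rose, and over all probe sets 8114 fell and 8417 rose. The RBL1 probe set 1555004_a_at was lost without both arrays numbered 0 (adjusted p = 0.0575), an alternative chosen after seeing the data. Under it 202248_at of E2F4 fell, and 1 gene of the MuvB, MYB and FOXM1 list rose. With the mean of probe sets 1 PRC1.6 gene, MAX, and 1 gene of E2F turnover, FZR1, rose. Leaving out single arrays, 0 to 1 MuvB, MYB and FOXM1 genes and 1 to 2 PRC1.6 genes rose, and 5 to 8 G2/M genes rose and 2 to 4 fell. The cause of these shifts was not tested. Signal near the array medians limits the dim probe sets.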

Other observations

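The genes whose log2 values over the 6 arrays were most like those of RBL1, the member with the largest fall by brightest probe set, were the zinc finger genes ZNF473 and ZNF777, the mitochondrial carrier gene SLC25A30, PRR3 and LYSET, a factor of lysosomal enzyme transport, with Pearson correlations of 0.999. ZNF473 went from 232 ± 9.77 to 106 ± 12.8 and PRR3 from 192 ± 17.1 to 65.5 ± 11.6 (n = 3 each). Those most like RBL2, the member that rose, were EPS8L2, DDX6, an RNA helicase of mRNA decay, the GTPase gene RAB12, the splicing factor gene SF3A1 and the kinase gene TLK1, at 0.998 to 0.999. EPS8L2 went from 1118 ± 138 to 1875 ± 262 and RAB12 from 1150.4 ± 97.4 to 1738 ± 186. The arrays fall into 2 conditions, so these correlations mostly follow the condition: 2793 genes correlated above 0.95 with RBL1 and 997 with RBL2. They are a description, with no test.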
